A study of Mus musculus with 16 samples.

Results

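The 9 genes described here encode subunits of potassium channels of the ventricular wall: Kcnk2, Kcnk3, Kcnj2, Kcnj11, Kcnd2, Kcnip2, Kcna5, Kcnq1 and Kcnh2. They were listed by name and looked up in the deposited count table, which holds 53764 genes, and all 9 passed the filter on low counts that left 15841 genes for testing. The list was selected on a result of these data, the higher Kcnk2 on the HFHS diet in both drug arms, so the diet values of the 9 genes are given as a description, with no p-value. Messenger RNA was sequenced from the left ventricle of male C57BL/6J mice, which began a diet at an age of 8 weeks and were kept on it for 4 months. The groups were a high-fat, high-sucrose diet with ertugliflozin (HFHS ertugliflozin), the same diet without drug (HFHS untreated), a low-fat control diet with ertugliflozin (CD ertugliflozin) and that diet without drug (CD untreated). Ertugliflozin, an inhibitor of the renal sodium-glucose transporter SGLT2, was mixed into the food at 0.5 mg per g. Each group had 4 libraries from 4 animals, which the submitters picked from a larger number as representative, and the 16 libraries held 14637669 to 21452212 counted reads.

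Potassium channels carry the outward currents that repolarize the cardiac action potential and hold the resting potential. In the mouse ventricle a fast transient outward current, formed by Kv4 subunits with the calcium-binding subunit KChIP2, and slowly inactivating delayed rectifiers do most of the repolarizing. Inward rectifiers set the resting potential, ATP-sensitive channels open when cellular energy falls, and the leak channels of the K2P family respond to stretch, pH and lipids.

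Heart muscle transcripts were abundant in every library. Summed over 10 genes listed as ventricular cardiomyocyte markers, the level was 67492 to 79306 CPM in HFHS and 72799 to 85145 CPM in CD libraries. CPM is the count scaled by library total and TMM factor. The list holds general heart muscle genes such as Tnnt2 and Tnni3, so the sum alone does not establish the chamber. Atrial markers stood apart in CD untreated replicate 1, whose summed level was 1385 CPM against 329 to 602 CPM in the other libraries. The atrial light chain gene Myl7 was at 234 CPM in that library. Valve and cartilage-like markers summed to 218 and 190 CPM in CD untreated replicates 2 and 3 and to at most 70.7 CPM elsewhere. That sum was 38.9 to 218 CPM in CD untreated and 11.2 to 31.97 CPM in HFHS untreated libraries, with no overlap. It overlapped between the diets with drug. For diet without drug, 7 of 7 tested valve and 10 of 10 tested atrial markers were lower on HFHS. The median log2 fold changes were −3.27 and −0.82. With drug, 4 of 7 and 8 of 10 were lower, with medians of −0.01 and −0.20. The part of the valve difference in the diet values without drug was not tested.

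Per length, Kcnk3 was the most abundant of the 9 transcripts and Kcnk2 the least. The level is given as CPM per kb of merged exon length, as a mean over 16 libraries with the SD. Kcnk3, which encodes the acid-sensitive leak channel TASK-1, was at 95.6 ± 9.54. Kcnj11, the pore of the sarcolemmal ATP-sensitive channel, was at 47.5 ± 4.19, and Kcnip2, the gene of KChIP2, was at 46.8 ± 6.93. Then came Kcnh2 (the ERG channel of the rapid delayed rectifier) at 15.8 ± 2.07, Kcnj2 (Kir2.1, the main strong inward rectifier) at 11.8 ± 2.46, Kcna5 (Kv1.5, a slowly inactivating delayed rectifier in mouse ventricle) at 11.2 ± 2.65 and Kcnq1 (Kv7.1, the slow delayed rectifier) at 9.98 ± 1.33. Kcnd2 (Kv4.2, the pore of the fast transient current) was at 6.60 ± 1.31 and Kcnk2 (TREK-1, a leak channel opened by stretch, acid inside the cell and polyunsaturated fatty acids) at 0.940 ± 0.249. All transcripts of a gene were merged for the length, and the ranks of Kcnj2, Kcna5 and Kcnq1 changed when the longest transcript was used.

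**Figure D1:**
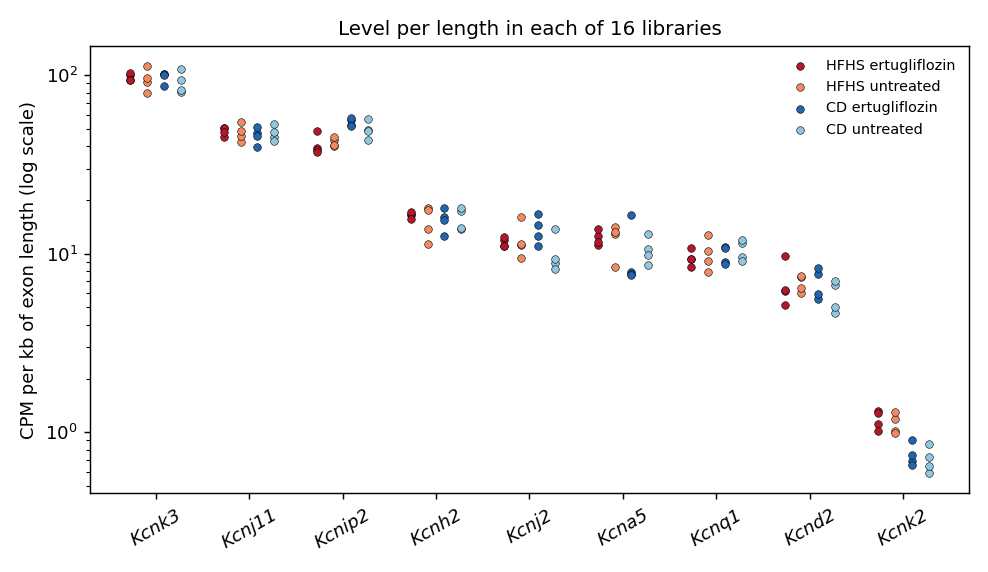
Level per length of each channel gene (y axis, CPM per kb of exon length, log scale) in the 16 libraries, with 1 point per library and the 4 groups side by side, HFHS left of CD. Kcnk3 is highest at a mean of 95.6 and Kcnk2 lowest at 0.940, and the HFHS points of Kcnk2 lie above its CD points.

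Some neighbours in that order could not be separated. Kcnk3 exceeded Kcnj11 in 16 of 16 libraries, Kcnip2 exceeded Kcnh2 in 16 of 16 and Kcnd2 exceeded Kcnk2 in 16 of 16, with a ratio of mean levels of 7.02 for the last pair. Kcnj2 exceeded Kcna5 in 7 of 16 libraries, and Kcna5 exceeded Kcnq1 in 11 of 16, so these did not differ beyond their spread. Kcnj11 exceeded Kcnip2 in 10 of 16 libraries, and that order went with diet: Kcnj11 was the higher of the pair in 8 of 8 HFHS libraries and in 2 of 8 CD libraries.

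Kcnk2 was higher in every HFHS library than in any CD library. With ertugliflozin, Kcnk2 was at 6.52, 6.30, 5.48 and 5.05 CPM in HFHS libraries, against 3.39, 3.25, 4.45 and 3.69 CPM in CD libraries. Without drug, it was at 5.01, 5.87, 4.91 and 6.42 CPM in HFHS libraries, against 2.92, 3.22, 3.59 and 4.24 CPM in CD libraries. The groups did not overlap in either arm, and the lowest HFHS library (4.91 CPM) stood above the highest CD library (4.45 CPM). The log2 fold change of HFHS over CD was 0.66 ± 0.14 with drug, 0.67 ± 0.15 without drug and 0.67 ± 0.10 as the mean of both (SE, edgeR), which is 58.6% more for the mean. These values chose the list and support nothing further. They rest on 46 to 139 reads per library. In bulk tissue, fewer cells of a type and less RNA per cell cannot be told apart, for Kcnk2 and for every gene below.

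The gene of Kcnk2 (ENSMUSG00000037624) lies on the minus strand of chromosome 1 from 189207930 to 189402273 in GRCm38, and RefSeq gives it 4 start sites in the same build. The windows around the sites, 250 bases before and 50 after, differed in base composition, with 43.0%, 54.7%, 74.7% and 68.7% G or C from the most upstream site on, against a median of 52.7% over 32851 mouse windows of this kind. The most upstream and the most GC-rich window are printed because Kcnk2 had the largest diet value of the 9 genes and its start sites differ this much. Capitals mark the letters GGGCGG (GC box, either strand), present in 35.7% of all windows.
Kcnk2 most upstream, chr1:189402224-189402523, minus strand: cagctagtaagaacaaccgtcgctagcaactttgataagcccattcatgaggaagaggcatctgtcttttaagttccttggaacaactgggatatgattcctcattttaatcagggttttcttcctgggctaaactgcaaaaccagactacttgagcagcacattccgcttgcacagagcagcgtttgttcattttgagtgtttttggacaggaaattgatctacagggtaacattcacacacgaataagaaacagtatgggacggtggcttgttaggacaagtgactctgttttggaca
Kcnk2 most GC-rich, chr1:189343658-189343957, minus strand: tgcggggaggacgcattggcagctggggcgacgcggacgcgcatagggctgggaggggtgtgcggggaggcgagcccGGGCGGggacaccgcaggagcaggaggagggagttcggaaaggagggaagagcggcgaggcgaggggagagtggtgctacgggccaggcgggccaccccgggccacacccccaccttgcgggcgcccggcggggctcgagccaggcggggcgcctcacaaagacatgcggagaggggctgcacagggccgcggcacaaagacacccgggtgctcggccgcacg
The upstream window held no GC box, and the GC-rich window held 1, at 173 bases before its start. Neither held an E-box (CACGTG, 7.15% of all windows), a TATA box (TATAAA, 13.6%), the nuclear receptor letters AGGTCA (16.3%) or a D-box (TTATGTAA, 0.938%) on either strand. The gene counts do not tell which start the reads came from. Of the 9 genes, 6 had a window in the RefSeq table.

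Kcnk2 did not pass for the drug on either diet. Means were 5.84 ± 0.69 CPM in HFHS ertugliflozin and 5.55 ± 0.72 CPM in HFHS untreated hearts (SD, n = 4 each). On CD they were 3.70 ± 0.53 CPM in ertugliflozin and 3.49 ± 0.57 CPM in untreated hearts. The log2 fold change of ertugliflozin over untreated was 0.07 ± 0.14 on HFHS (95% interval −0.22 to 0.36) and 0.08 ± 0.15 on CD (−0.23 to 0.39). The groups overlapped on both diets (edgeR adjusted p = 0.947 for the mean drug effect). The difference of the drug effects, HFHS minus CD, was −0.01 ± 0.20, with an interval of −0.43 to 0.41. Differences inside that interval are not excluded.

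Kcnk3, the other K2P gene of the list, gave overlapping groups throughout. It was at 401, 412, 375 and 375 CPM in HFHS ertugliflozin, at 315, 364, 447 and 384 CPM in HFHS untreated, at 406, 348, 402 and 401 CPM in CD ertugliflozin and at 373, 320.5, 331 and 430 CPM in CD untreated libraries. The diet values were 0.00 ± 0.10 with drug and 0.05 ± 0.10 without, on the log2 scale, and the drug values were 0.05 ± 0.10 on HFHS and 0.10 ± 0.10 on CD. Exons of Kcnk3 share 229 bases with Gm9899 on the opposite strand, which was at 17.7 to 28.1 CPM, and those of Kcnk2 share 604 bases with A430027H14Rik, which had 0 to 4 reads per library. The strand setting of the counting is not given in the sources used here.

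**Figure D2:**
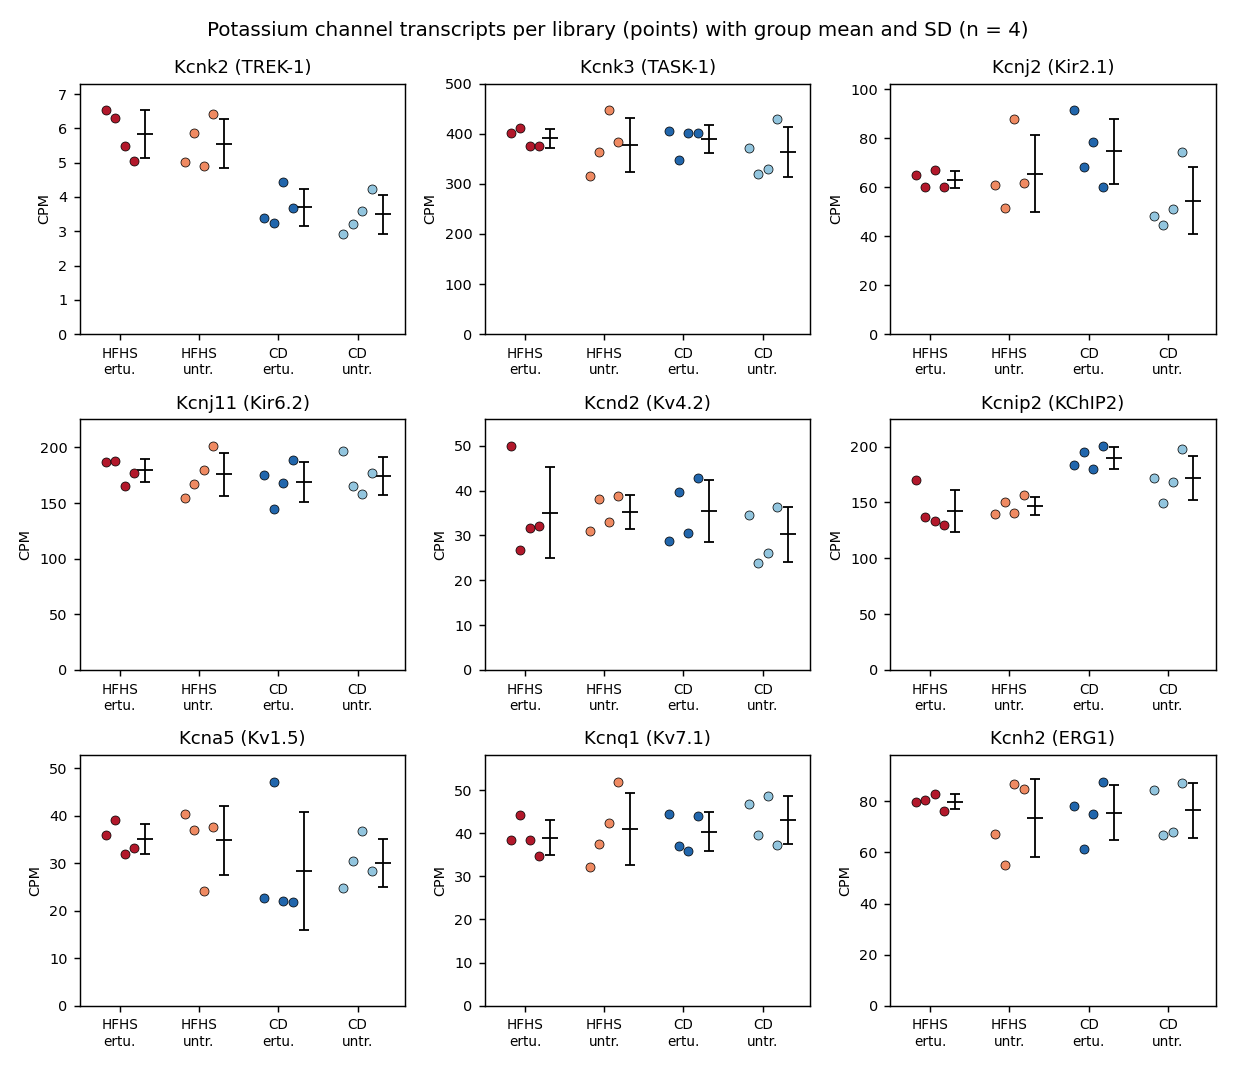
CPM of each of the 9 channel genes in the 16 libraries (points), with the mean and SD of each group (n = 4), for HFHS ertugliflozin, HFHS untreated, CD ertugliflozin and CD untreated from left to right. The HFHS points of Kcnk2 (4.91 to 6.52 CPM) all lie above its CD points (2.92 to 4.45 CPM), and 1 CD ertugliflozin library stands apart for Kcna5 at 47.1 CPM.

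Kcnip2 was lower on HFHS. With ertugliflozin, it was at 170, 137, 133 and 129 CPM in HFHS libraries, against 184, 196, 180 and 200 CPM in CD libraries. The groups did not overlap, and HFHS replicate 1 was the nearest to CD. Without drug, it was at 139, 151, 141 and 156 CPM in HFHS libraries, against 172, 150, 168 and 198 CPM in CD libraries, where CD replicate 2 lay among the HFHS values. The log2 fold change of HFHS over CD was −0.41 ± 0.09 with drug, −0.23 ± 0.09 without and −0.32 ± 0.06 as the mean, a 20% lower level for the mean. The drug values were −0.04 ± 0.09 on HFHS and 0.14 ± 0.08 on CD (edgeR adjusted p = 0.847 on CD). Their difference was −0.19 ± 0.12, with a 95% interval of −0.44 to 0.07, and it did not pass.

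Some of the genes listed as ventricular cardiomyocyte markers fell on HFHS, as Kcnip2 was lower there. Of 10 such markers, 4 fell with drug by the edgeR test, against 1.53% of all genes, and 0 fell without drug, against 0.619%. A negative sign was found for 6 of the 10 with drug and for 7 without. The 4 were Myl2 (−0.23 ± 0.06), Myl3 (−0.20 ± 0.05), Tnni3 (−0.25 ± 0.06) and Tnnt2 (−0.25 ± 0.06), which encode light chains of myosin and subunits of troponin. The median over the 10 was −0.10 in each arm, and 0 of the 10 were at 0 in every library. Of 10 endothelial markers, Kdr (0.46 ± 0.07) and Cdh5 (0.35 ± 0.07) rose on HFHS without drug and 0 rose with drug, against 1.45% and 2.15% of all genes. The summed level of the 10 was 1744 to 2073 CPM in HFHS untreated and 1526 to 1687 CPM in CD untreated hearts. Of 10 fibroblast markers, 1 rose in each arm against the same shares, and the median was 0.32 with drug and −0.01 without. Their summed level with drug was 3324 to 3688 CPM in HFHS and 2624 to 3404.5 CPM in CD libraries, which overlapped. Macrophage markers were lower on HFHS for 8 of 8 with drug and 4 of 8 without, and 0 passed in either arm. The part of these shifts in the Kcnk2 and Kcnip2 values was not tested.

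The gene of Kcnip2 (ENSMUSG00000025221) lies on the minus strand of chromosome 19 from 45791839 to 45816061. Its single RefSeq window is printed beside those of Kcnk2 because the pair moved in opposite directions with diet. It held 67.0% G or C and 2 GC boxes (capitals), at 87 and 17 bases before the start, and none of the other motifs searched.
Kcnip2, chr19:45816014-45816313, minus strand: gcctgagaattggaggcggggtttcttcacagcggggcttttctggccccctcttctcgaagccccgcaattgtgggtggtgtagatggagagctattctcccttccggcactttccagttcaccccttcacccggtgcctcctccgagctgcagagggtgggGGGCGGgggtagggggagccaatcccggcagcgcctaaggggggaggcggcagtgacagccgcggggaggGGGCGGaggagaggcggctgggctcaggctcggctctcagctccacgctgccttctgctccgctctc

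Kcnd2, the partner of Kcnip2 in the fast transient current, gave overlapping groups. It was at 49.9, 26.6, 31.7 and 32.2 CPM in HFHS ertugliflozin, at 31.1, 38.1, 33.1 and 38.7 CPM in HFHS untreated, at 28.7, 39.7, 30.5 and 42.8 CPM in CD ertugliflozin and at 34.6, 23.9, 26.0 and 36.5 CPM in CD untreated libraries. The diet values were −0.01 ± 0.20 with drug and 0.23 ± 0.20 without, and the drug values were 0.00 ± 0.20 on HFHS and 0.23 ± 0.20 on CD. Inside the groups, Kcnd2 and Kcnip2 varied together. In 4 of 4 groups the same library was highest for both genes, and in 2 groups, HFHS untreated and CD untreated, all libraries had the same order. Over the deviations of 16 libraries from their group means, Pearson's r between the log2 CPM of both genes was 0.87. It was the highest of the 36 pairs among the 9 genes, which ran from −0.67 (Kcna5 and Kcnh2), and it is a description of libraries that share depth and dissection.

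The inward rectifiers among the 9 genes, Kcnj2 and Kcnj11, showed no separation by diet. Kcnj2 was at 65.1, 59.9, 67.2 and 60.2 CPM in HFHS ertugliflozin, at 60.9, 51.3, 88.0 and 61.7 CPM in HFHS untreated, at 91.3, 68.3, 78.5 and 60.2 CPM in CD ertugliflozin and at 48.2, 44.5, 51.1 and 74.5 CPM in CD untreated libraries. On CD, 3 of the 4 untreated libraries lay below all ertugliflozin libraries. The drug value of Kcnj2 was −0.05 ± 0.19 on HFHS and 0.45 ± 0.19 on CD, the largest in size of any of the 9 genes for the drug on CD. The effect on CD did not pass (unadjusted p = 0.0300, edgeR adjusted p = 0.776), and neither did the difference, −0.50 ± 0.26 (95% interval −1.07 to 0.07). Its diet values were −0.24 ± 0.18 with drug and 0.26 ± 0.19 without, and these share the CD libraries with the drug value on CD.

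Kcnj11 was at 187, 187, 165 and 177 CPM in HFHS ertugliflozin, at 155, 167, 180 and 201 CPM in HFHS untreated, at 175, 145, 168 and 188 CPM in CD ertugliflozin and at 197, 165, 158 and 177 CPM in CD untreated libraries. All groups overlapped. The diet values were 0.08 ± 0.09 with drug and 0.01 ± 0.09 without, and the drug values were 0.03 ± 0.09 on HFHS (95% interval −0.15 to 0.21) and −0.04 ± 0.09 on CD (−0.23 to 0.14).

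Among the delayed rectifiers, Kcna5 varied most between libraries. It was at 35.9, 39.2, 31.9 and 33.3 CPM in HFHS ertugliflozin, against 22.6, 47.1, 22.1 and 21.8 CPM in CD ertugliflozin libraries. In 3 of the 4 CD ertugliflozin libraries Kcna5 was below every HFHS ertugliflozin library, and replicate 2 was above them all. Without drug, it was at 40.4, 36.9, 24.1 and 37.7 CPM in HFHS libraries and at 24.7, 30.5, 36.7 and 28.3 CPM in CD libraries. The diet value with drug was 0.31 ± 0.24 over all libraries. Without CD ertugliflozin replicate 2 it was 0.66 and past the threshold, as was the mean diet effect of Kcna5, at 0.44. Kcna5 was past it in no other setting. The library left out there is the one with the highest Kcna5, so these values are only a description. CD untreated replicate 1, the library with the most atrial marker RNA, had the lowest Kcna5 of its group. The drug values of Kcna5 were 0.01 ± 0.24 on HFHS and −0.09 ± 0.24 on CD.

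Kcnq1 and Kcnh2 overlapped between all groups. Kcnq1 was at 34.6 to 44.3 CPM in HFHS ertugliflozin, 32.2 to 51.8 CPM in HFHS untreated, 35.8 to 44.4 CPM in CD ertugliflozin and 37.3 to 48.7 CPM in CD untreated hearts. Its exons share 121 bases with the antisense transcript Kcnq1ot1, which was at 18.6 to 35.0 CPM. Kcnh2 was at 76.2 to 83.1 CPM in HFHS ertugliflozin, 55.1 to 87.0 CPM in HFHS untreated, 61.3 to 87.5 CPM in CD ertugliflozin and 66.7 to 87.2 CPM in CD untreated hearts. The spread of Kcnh2 was narrowest in HFHS ertugliflozin, with a coefficient of variation of 3.54%, against 20.7% in HFHS untreated hearts. That was not particular to Kcnh2. By the same measure HFHS ertugliflozin was also the narrowest group for Kcnk2, Kcnk3, Kcnj2, Kcnj11, Kcna5 and Kcnq1, and the widest for Kcnd2 and Kcnip2. The diet values of Kcnq1 were −0.05 ± 0.13 with drug and −0.07 ± 0.13 without, and those of Kcnh2 were 0.08 ± 0.14 with drug and −0.06 ± 0.14 without.

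**Figure D3:**
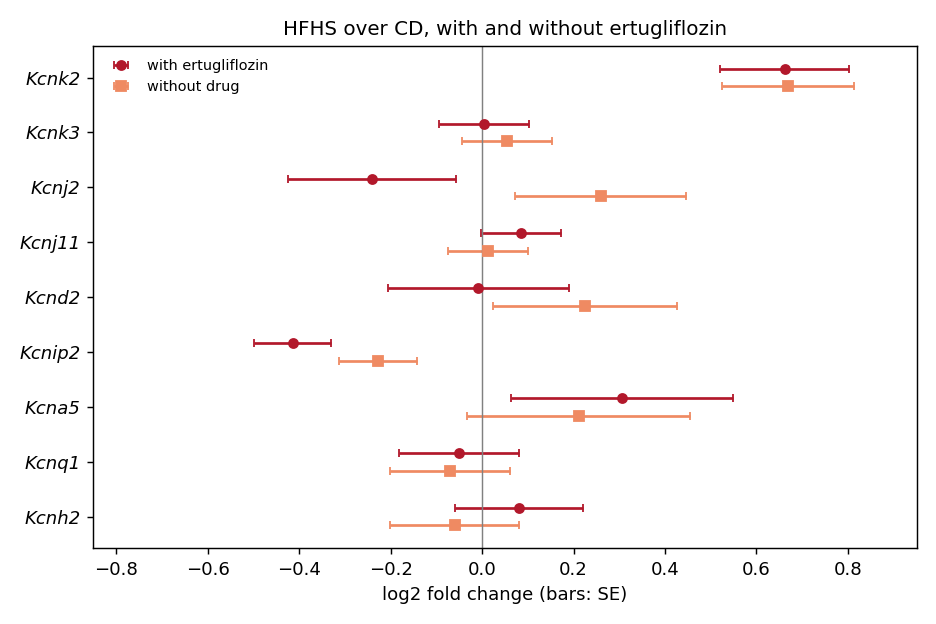
Log2 fold change of HFHS over CD (x axis) for each gene (rows), with ertugliflozin (circles) and without drug (squares), and bars for the SE. Kcnk2 lies at 0.66 and 0.67, Kcnip2 at −0.41 and −0.23, and the Kcnj2 values have opposite signs.

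Counted over the list, 1 or 2 of the 9 genes were past the threshold in each diet comparison. With drug, 2 of the 9 were past the edgeR threshold of an adjusted p of 0.05 (Kcnk2 higher, Kcnip2 lower), against 3.69% of the 15841 genes, of which 2.15% were higher. Without drug, 1 of the 9 (Kcnk2) was past it, against 2.06% of all genes, and 1.45% higher. For the mean diet effect, 2 of the 9 (Kcnk2 and Kcnip2) were past it, against 11.6% of all genes, and 6.59% higher. The median log2 fold change of the 9 in the mean diet effect was 0.03, against −0.01 over all genes. Because Kcnk2 was the reason for the choice, its part in these counts says nothing about the list. The call of Kcnk2 without drug ended when HFHS untreated replicate 2 or 4 or CD untreated replicate 1 or 2 was left out, with values of 0.60 to 0.64, and its call with drug ended without HFHS ertugliflozin replicate 1, at 0.60. Without 1 of the untreated libraries named here, 133 to 189 of all genes were called without drug, against 327 in the main fit. With drug, 287 were called without HFHS ertugliflozin replicate 1, against 584 in the main fit. With an atrial marker score as covariate the Kcnk2 value without drug was 0.63 and was not called. Nor was it, at 0.67, when only the groups compared were fitted. Over all genes, these 2 settings called 11 of 15841 and 136 of 15359 for diet without drug. With each library left out in turn, the mean diet value ran from 0.63 to 0.72 for Kcnk2 and from −0.37 to −0.28 for Kcnip2. These ranges are a description, as the diet values are.

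No gene of the list passed for the drug. The edgeR test called 0 of the 9 on HFHS, 0 of the 9 on CD, 0 for the mean drug effect and 0 for the difference between diets. Over all genes the same test called 0% (0 genes), 0.0189% (3 genes), 0% (0 genes) and 0.0189% (3 genes) in these comparisons. At an unadjusted p under 0.05 the only one of the 9 was Kcnj2 on CD, where 978 of all genes (6.17%) were under it. On HFHS 637 of all genes (4.02%) were, and for the mean drug effect 882 (5.57%). DESeq2 and limma-voom called 0 of the 9 as well. The log2 values of the drug ran from −0.07 to 0.12 on HFHS and from −0.09 to 0.45 on CD. The SE of a single value was at most 0.24 on either diet.

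**Figure D4:**
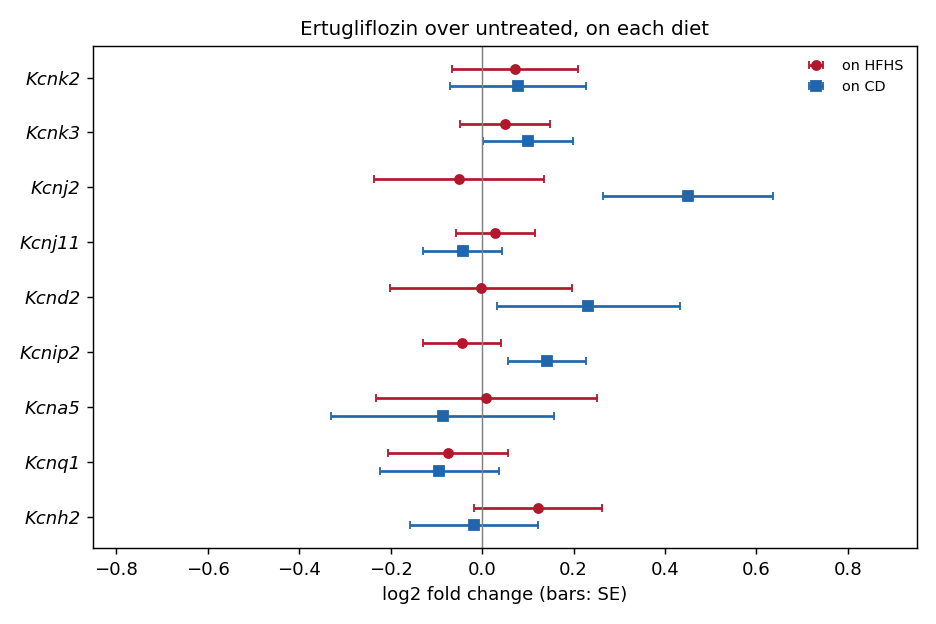
Log2 fold change of ertugliflozin over untreated (x axis) for each gene (rows), on HFHS (circles) and on CD (squares), and bars for the SE. All values lie between −0.09 and 0.12 except those of Kcnj2 (0.45), Kcnd2 (0.23) and Kcnip2 (0.14) on CD, none of which passed.

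Other potassium channel genes were read from a list of 88, of which 46 passed the filter. The 42 below it had at most 15 reads in any library, and 11 had none. For the mean diet effect 4 of the 46 rose on HFHS and 0 fell, against 6.59% of all genes higher and 5.01% lower, and the median over the 46 was 0.06, against −0.01 over all genes. With drug 2 rose, without drug 2 rose, against 2.15% and 1.45% of all genes, and none fell in either. These numbers are small, and the share that rose in the mean diet effect was near that of all genes. In each of the drug comparisons 0 of the 46 passed (edgeR), with 1 at an unadjusted p under 0.05 on HFHS and 3 on CD. In the mean diet effect 1 of 8 tested inward rectifiers rose, and none of 11 auxiliary subunits, 7 calcium- or sodium-activated channels and 4 K2P channels. Values are given for Kcnj14 and Kcnd3.

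Kcnj14, the gene of the inward rectifier Kir2.4, had 20 to 105 reads per library. It was at 4.18, 2.70, 4.46 and 6.05 CPM in HFHS ertugliflozin and at 1.15, 1.73, 1.72 and 1.77 CPM in CD ertugliflozin libraries, with no overlap, and it rose by 1.44 ± 0.31 (edgeR adjusted p = 0.0152). Without drug it was at 3.10, 5.60, 1.75 and 2.79 CPM in HFHS libraries and at 1.27, 2.07, 1.93 and 2.51 CPM in CD libraries, which overlapped, and 0.78 ± 0.31 did not pass. The mean diet effect was 1.11 ± 0.22 (edgeR adjusted p = 0.00383). Kcnd3 encodes Kv4.3, the other pore subunit of the fast transient current in the ventricle. It was at 34.5 ± 2.35 CPM in HFHS ertugliflozin and 27.8 ± 1.36 CPM in CD ertugliflozin hearts, and at 34.4 ± 5.24 CPM in HFHS untreated and 28.8 ± 5.54 CPM in CD untreated hearts (SD, n = 4 each). Its mean diet effect was 0.28 ± 0.08 (edgeR adjusted p = 0.0290). That call ended when any 1 of 8 libraries was left out (HFHS ertugliflozin 1, HFHS untreated 3 or 4, CD ertugliflozin 3 or 4, CD untreated 2, 3 or 4), at 0.24 to 0.28, and when no filter was applied, at 0.28. With the atrial score as covariate, Kcnd3 (0.35) and Kcnj14 (1.06) were not called in the mean diet effect. Over all genes that comparison called 661 of 15841 with the covariate and 1516 of 30540 with no filter. It called 1372 to 1721 without 1 of those 8 libraries, against 1837 in the main fit. Kcnd3 overlaps a gene on the opposite strand, Kcnd3os.

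**Figure D5:**
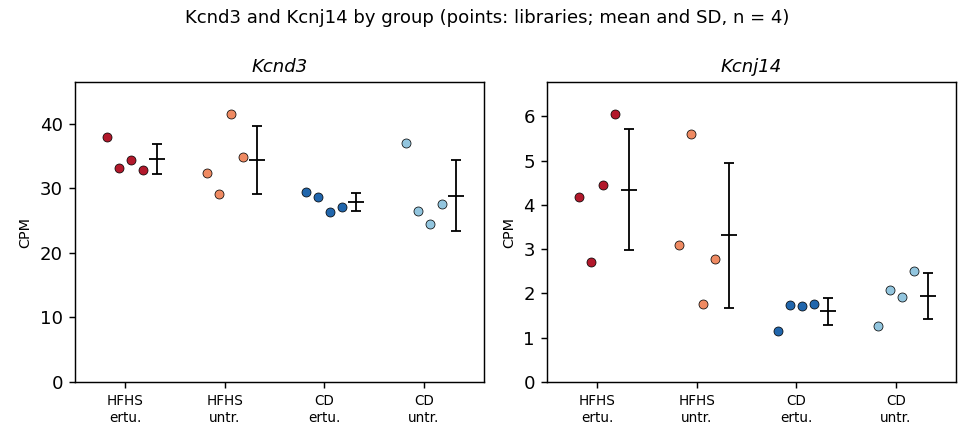
CPM of Kcnd3 and Kcnj14, which passed in the mean diet effect, in the 16 libraries (points) with the mean and SD of each group (n = 4), HFHS left of CD. Kcnj14 on HFHS with drug (2.70 to 6.05 CPM) lies above its CD values with drug (1.15 to 1.77 CPM) and spreads widely on HFHS.

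Known partners and regulators of these channels did not pass in any comparison. Of 7 tested partner proteins of the Kcnk2 channel 0 passed (edgeR), and 0 had an unadjusted p under 0.05 in the mean diet effect. Popdc2, a cyclic AMP-binding Popeye protein of muscle membranes, was at 0.12 ± 0.06 there, and its relative Bves, which binds TREK-1, was at −0.07 ± 0.06. The spectrin gene Sptbn4, with a mean of only 0.77 CPM, was at −0.26 ± 0.26 (0.08 ± 0.37 without drug and −0.61 ± 0.35 with drug). Of 19 tested transcription factors that bear on ventricular potassium channels 0 passed, with 2 at an unadjusted p under 0.05 in the mean diet effect. Of all genes, 11.6% passed and 26.5% were under that p in the same comparison. These were Nfatc3, at 0.11 ± 0.04 (edgeR adjusted p = 0.0919), and Klf15, a factor that raises Kcnip2 in mouse heart, at −0.35 ± 0.16 (edgeR adjusted p = 0.163). The mineralocorticoid receptor gene Nr3c2 was at 0.16 ± 0.08.

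The transcripts most like Kcnk2 over the 16 libraries, among 12522 genes with a symbol and a mean of at least 1 CPM, were Rftn1 (Pearson's r 0.96 of log2 CPM), Olfr1396 (0.92), Arhgap23 (0.91), Eml1 (0.90) and Lpar4 (0.89). These values hold the diet difference that chose Kcnk2 and are a description. After the group means were taken off, the leading genes were Bmi1 (0.84), Fbxo25 (0.83), Brd2 (0.82), Clcf1 (0.79) and Gins3 (0.78), none of them among the first 5. Of the 9 channel genes, the nearest to Kcnk2 after that step was Kcnip2, at 0.54, while over all 16 libraries with the group means kept it was at −0.54. With ranks in place of values, 2 of the first 5 and 4 of the second 5 were the same genes.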

How the data were processed

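Per the labels' protocols, the libraries were made from poly(A)-selected RNA with a directional kit, 1 per mouse. The authors deposited whole read counts for 53764 Ensembl genes, and a table of regularized log2 values used here only as an alternative input. The submitters' processing notes name STAR 2.6.0c, featureCounts, Subread 1.6.2, FastQC 0.11.7, DESeq2 1.22.1 and mm10. The sources used here give neither the annotation nor the strand setting. GENCODE M21 (GRCm38) gave symbols for 53583 IDs, coordinates and exon lengths, and 181 IDs had no symbol. Promoter windows are from RefSeq (GRCm38.p6).

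The test was edgeR's quasi-likelihood test (version 4.0.16, R 4.3.3). Genes were kept by filterByExpr, libraries were scaled by TMM, and all 16 entered 1 robust fit of group means. P-values were adjusted by Benjamini-Hochberg over 15841 genes, with a threshold of 0.05. The SE was obtained as |log2 fold change| over the root of F. The procedure was tested on simulated counts. Correlations used log2 CPM with a prior count of 2. Within each group, chi-square over its degrees of freedom was 3.19 to 15.7 for the 24 pairs of libraries, and each library counted as 1 replicate.

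The 9 genes, the further lists and the tests were chosen with earlier results of these data known. Named beyond the 9 are listed channels, partners and regulators that passed in any of 7 comparisons, the 3 of smallest p in the mean diet effect where fewer than 3 passed, and the 5 genes most like Kcnk2 by each measure, skipping model names. Of the other potassium channels that passed, 2 are not reported here. The alternatives tried were scaling by RLE or by upper quartiles, filtering not at all or at 1 CPM in 4 libraries, DESeq2 1.42.0, limma 3.58.1 with voom weights or on the deposited log2 values, a replicate block, only the groups compared, an atrial score as covariate, and leaving out each library.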

Additional observations from a re-analysis of the deposited data

Results flagged for a closer look

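Within groups of 4, a library far from the other 3 by Dixon's criterion was found for 2 of the 36 combinations of group and gene, and chance alone gives about 1 in 20. Kcnk3 in CD ertugliflozin replicate 2 was at 348.34 CPM, below the other 3 at 401 to 406 CPM. Kcna5 in the same library was at 47.06 CPM, above the other 3 at 21.8 to 22.6 CPM.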

How the results depend on the processing

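Of 918 values of the 9 genes for the drug and for its difference between diets under the alternatives, 0 passed the threshold and 64 changed sign, all with a reported size of at most 0.0946. The diet values of Kcnk2 (77) and Kcnip2 (77) kept their sign throughout, which is only a description. Those of Kcnk2 chose the list, and its libraries did not overlap between diets, so leaving 1 out could not turn the sign. Their size was not kept. The lowest Kcnk2 value was 0.21 in each diet comparison, in a setting other than leaving out a library. With a replicate block, 1 of the 9 genes was past the threshold for diet without drug, 2 with drug and 2 for the mean diet effect, and the block changed no call of the 9. Over all genes the block called 329, 550 and 1796 in these comparisons, against 327, 584 and 1837 without it. Of the other potassium channels 5 passed in the mean diet effect with the block, in place of 4. Of same-numbered pairs of libraries, 6 of 24 had a correlation of deviations over 0.1, against 12 of 72 other pairs. The correlations ran from −0.24 to 0.31 and from −0.26 to 0.27, ranges too alike to decide whether the numbers pair the samples. For diet without drug, 0 of the 9 passed with the atrial covariate or with only the groups compared, and 0 to 1 without 1 library. Over all genes that comparison called 327 of 15841 in the main fit and 11 of 15841 with the atrial covariate. It called 136 of 15359 with only the groups compared, and 133 to 846 without 1 library. With drug, 1 to 3 of the 9 passed without 1 library. Over all genes 287 to 844 did, against 584 in the main fit. Of the other potassium channels, for diet without drug 1 passed with upper-quartile scaling, 0 with the atrial covariate, 1 on the log2 values, 1 with only the groups compared and 1 to 2 without 1 library. With drug 4 passed with only the groups compared and 1 to 3 without 1 library. Over all genes, upper-quartile scaling called 289 and the log2 values 304 for diet without drug. With drug, 719 of 15362 were called with only the groups compared, against 584 in the main fit. The cause was not tested. With the longest transcript as length, 6 of 9 ranks of level were kept.

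Small values that turned sign were as follows, on the log2 scale. With voom weights the drug on CD was at 0.0437 for Kcnh2, the drug on HFHS at −0.0103 for Kcnj11, and the difference between diets at −0.0440 for Kcnq1. Without a filter the drug on HFHS was at 0.0074 for Kcnd2 and the difference at 0.0016 for Kcnk2. With the atrial covariate the mean drug effect was at 0.0081 for Kcnj11, and the difference at 0.0218 for Kcnk2, 0.0280 for Kcnk3 and −0.0334 for Kcnq1. On the deposited log2 values the difference was at 0.0089 for Kcnk2. Without 1 library, the drug on CD ran from −0.0265 to 0.1857 for Kcnk2, −0.0983 to 0.0247 for Kcnj11, −0.4398 to 0.0254 for Kcna5 and −0.0952 to 0.0710 for Kcnh2. The drug on HFHS ran from −0.0271 to 0.1377 for Kcnk3, −0.1526 to 0.1210 for Kcnj2, −0.0267 to 0.0984 for Kcnj11, −0.2261 to 0.1092 for Kcnd2, −0.1305 to 0.0861 for Kcna5 and −0.1717 to 0.0580 for Kcnq1. The mean drug effect ran from −0.0355 to 0.0286 for Kcnj11, −0.0025 to 0.0867 for Kcnip2, −0.2155 to 0.0172 for Kcna5 and −0.0087 to 0.0971 for Kcnh2. The difference ran from −0.1164 to 0.0979 for Kcnk2, −0.1452 to 0.0362 for Kcnk3, −0.0464 to 0.4486 for Kcna5 and −0.0780 to 0.1501 for Kcnq1. Depth limits genes with few reads, among them Kcnk2 with 46 to 139 and Kcnj14 with 20 to 105 reads per library.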
